A study of Mus musculus with 70 samples.

Results

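This account describes 50 of the 70 dorsal hippocampal RNA-seq libraries of an exercise study, the 17 with Ttr at or above 1000 FPKM and the 33 with Ttr below 100 FPKM. FPKM is the number of fragments of a gene relative to transcript length and library size. The libraries were chosen by their Ttr level alone, whatever their group, and the 20 libraries in between (100 to under 1000 FPKM) were kept apart as the middle libraries. Ttr chose the libraries, so every comparison of high with low libraries is a description with no test, and Ttr itself is left out of it. The markers given for this sort, Folr1, Kl and Enpp2, were all higher in the high libraries.

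The animals were 12-week-old male C57BL/6J mice, housed singly, in 7 groups of 10. The 14-0-0 mice ran on a wheel for 14 days, and the 14-7-0 and 14-14-0 mice then stayed sedentary for 7 or 14 days. The 14-7-2 mice ran again for 2 days after a 7-day delay, the 0-0-2 mice ran for only 2 days, and the sedentary mice (0-0-0) had no wheel. All of these received 3 min of object location memory training 1 h before the tissue was taken, and wheels were removed the night before. The home cage mice had no training. Each group had 5 mice in each of 2 harvest cohorts, collected a day apart, and the replicate numbers run from 0 to 9. The bilateral dorsal hippocampus was dissected, and each library is 1 animal as far as the labels tell.

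The choroid plexus is a folded epithelium that lies in the brain ventricles and secretes cerebrospinal fluid. Its cells carry ion pumps, bicarbonate and chloride transporters and the water channel aquaporin 1, are joined by tight junctions, and release carrier proteins such as transthyretin, the product of Ttr, which binds thyroid hormone. Folr1 encodes a folate receptor that moves folate into the fluid, Kl encodes the membrane protein klotho, and Enpp2 encodes the secreted enzyme autotaxin. The plexus of the lateral ventricle lies along the hippocampus, and the ventricle is lined by ciliated ependymal cells.

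Sums of FPKM per library were 382574 to 469206, and no 2 libraries held identical values. A pair of libraries stood apart by other measures. The 14-7-0 replicate 4 library, a low library, listed 10279 genes at 0, against 6243 to 7199 in the middle and high libraries, and it listed Folr1, Kcne2 and Kcnj13 at 0. The sedentary replicate 6 library, a middle library with Ttr at 101.2 FPKM, had Neurod6, a pyramidal neuron transcription factor, at 2.45 FPKM. Neurod6 was at 123.0 to 202.4 FPKM in the high libraries and 78.4 to 269.2 FPKM in the low ones, so all 50 libraries of the comparison held hippocampal neuron RNA.

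Ttr spanned 15.5 to 21244 FPKM across the series. The high libraries ran from 1323.6 to 21244 FPKM with a median of 6419.5, and the low libraries from 15.5 to 89.6 FPKM with a median of 53.0. Just inside the upper limit was 0-0-2 replicate 3 at 1323.6 FPKM, and just outside it was 14-0-0 replicate 5 at 981.6 FPKM. At the lower limit, 0-0-2 replicate 4 was inside at 89.6 FPKM and home cage replicate 8 was outside at 100.3 FPKM. Ttr took 0.323 to 5.04% of the FPKM sum in the high libraries and 0.00355 to 0.0218% in the low ones. In whole-tissue RNA, fewer cells of a type and less RNA per cell cannot be told apart.

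High and low libraries occurred side by side in 6 of the 7 groups. There were 5 high and 2 low libraries in 14-0-0, 5 and 4 in 14-14-0, 3 and 4 in the home cage group, 2 and 5 in 0-0-2, 1 and 6 in 14-7-0, and 1 and 6 in 14-7-2. The sedentary group had 0 high and 6 low libraries, and its highest Ttr value was 343.9 FPKM. Cohort 1 held 8 high and 17 low libraries and cohort 2 held 9 and 16. Mean log2 Ttr was 7.75 in cohort 1 and 7.87 in cohort 2, with SDs of 3.04 and 2.96, so the cohorts differed by far less than the spread within either.

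**Figure D1:**
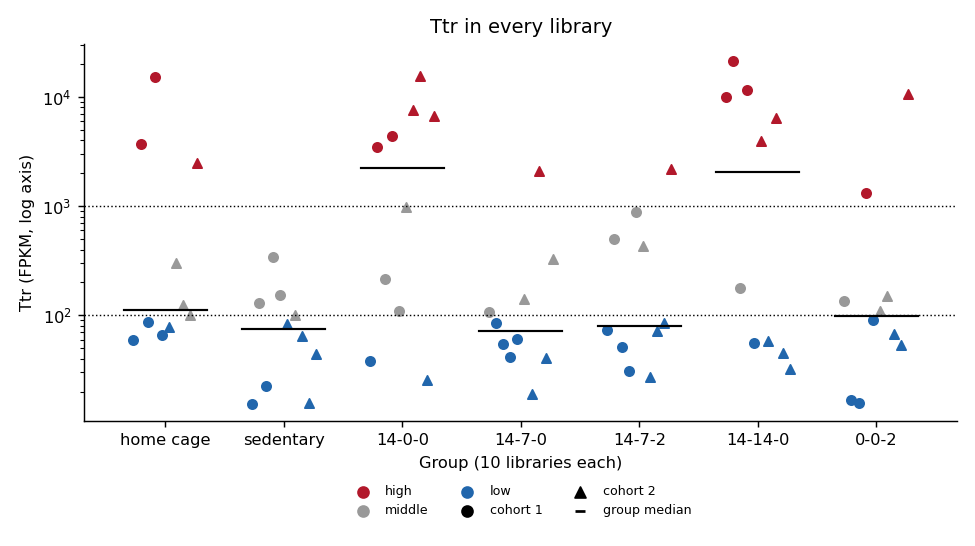
Ttr in FPKM (log axis) for each of the 70 libraries by group, with circles for cohort 1, triangles for cohort 2 and a line at the group median. Dotted lines mark 100 and 1000 FPKM, the colours mark high, middle and low libraries, and the sedentary group alone has no library above the upper line.

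Since Ttr chose the libraries, its levels by group are a description, with no test. Mean log2 Ttr was 5.97 ± 1.48 (SD, n = 10) in the sedentary group and 9.77 ± 3.40 in 14-0-0, a difference of 3.80, with 8 of 10 libraries above the sedentary median. The difference from sedentary was 3.57 for 14-14-0, 2.38 for the home cage group, 1.30 for 14-7-2, 1.15 for 0-0-2 and 0.66 for 14-7-0. All 6 comparisons share the sedentary libraries, and in each the ranges overlapped. For 14-0-0 the difference was 2.49 within cohort 1 and 5.12 within cohort 2. In a split by replicate number chosen after seeing the data, it was 5.42 in the odd-numbered and 2.19 in the even-numbered libraries. The spread within each running group covers most of the range: 14-0-0 ran from 25.6 to 15643.4 FPKM and 14-14-0 from 32.2 to 21244 FPKM.

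Genes were kept where their mean over the 70 libraries reached 1 FPKM, which left 12993 without Ttr, and a gene is called set apart where the ranges of the high and low libraries did not overlap and the mean log2(FPKM + 0.1) differed by at least 1. Of these genes, 54 were set apart as higher in the high libraries (0.416%) and 0 as lower (0.0%). The 54 differences ran from 1.03 to 6.49, with a median of 2.95, while the median over all genes was -0.01. With or without the condition on ranges, more genes lay higher than lower: 182 were at least 1 higher (1.4%) and 41 at least 1 lower (0.316%). The 54 genes together took 0.123 to 1.14% of the FPKM sum in the high libraries and 0.0251 to 0.0448% in the low ones. Of the 54, 29 had a mean under 1 FPKM in the low libraries and so passed the filter only through the other libraries. Folds are on the log2(FPKM + 0.1) scale, which understates them for low genes.

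A gene that is set apart over all libraries is higher within any group that holds both kinds, so within groups only the size of the difference is informative. The difference was at least 1 for 53 of 54 genes in the home cage group, 53 in 14-0-0, 52 in 0-0-2, 54 in 14-14-0 and 54 in 14-7-2, and for 37 in 14-7-0, where the 1 high library had Ttr at 2084.7 FPKM. Folr1 differed by 4.09 in 14-7-0 and by 5.99 in 14-0-0, the lowest and highest of the 6 groups.

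Genes of fluid secretion are given first. Of 12 ion, water and acid-base transport genes, 12 passed the filter, 5 were set apart and 11 were at least 1 higher, with a median difference of 2.59. Over all genes tested, 0.416% were set apart as higher and 1.4% were at least 1 higher. The 5 set-apart transport genes each averaged under 1 FPKM in the low libraries and passed the filter only through the others. Of the 59 genes that passed the filter in the 6 choroid epithelium lists, 19 did so in this way. Kcne2, a subunit that modulates potassium channels, was 0 to 0.725 FPKM in the low libraries (median 0.225) and 8.87 to 87.4 FPKM in the high ones (median 25.3), a log2 difference of 6.46 and a fold of 88.1. Kcnj13, an inwardly rectifying potassium channel, was 0 to 1.58 FPKM in the low libraries (median 0.445) and 9.0 to 126.2 FPKM in the high ones (median 39.3). Aqp1, the water channel of the apical membrane, was 0.0704 to 1.06 FPKM in the low libraries and 3.02 to 46.9 FPKM in the high ones. Every high library lay above every low library for these genes. Slc4a5, a sodium bicarbonate cotransporter, was at most 0.271 FPKM in the low libraries and at least 2.47 FPKM in the high ones. The osmosensitive cation channel Trpv4 was at most 0.891 and at least 2.04 FPKM.

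Other transport genes had a base level in the low libraries. Slc12a2, the sodium, potassium and chloride cotransporter NKCC1, was 9.63 to 21.1 FPKM in the low and 17.7 to 62.7 FPKM in the high libraries, a difference of 0.93 with overlapping ranges. Trpm3, a cation channel, differed by 1.79, the carbonic anhydrases Car12 and Car14 by 1.41 and 1.40, and the anion exchanger Slc4a2 by 1.34, and none of these was set apart. These genes are known to be expressed outside the choroid plexus as well. Clic6, a chloride channel family member, differed by 4.67, but its lowest high library (5.97 FPKM) fell just below its highest low library, 0-0-2 replicate 4 (5.99 FPKM). The values of Clic6 in the other low libraries were at most 2.02 FPKM.

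Solute carriers were mixed. Of 14 listed, 12 passed the filter, 4 were set apart and 6 were at least 1 higher, with a median difference of 0.97. Folr1 was 0 to 1.91 FPKM in the low libraries (median 0.727), 0.862 to 3.55 FPKM in the middle ones and 6.49 to 104.4 FPKM in the high ones (median 26.8), a log2 difference of 5.27. The retinoid transporter Abca4 differed by 3.92, the sugar transporter Slc2a12 by 2.87 and the copper transporter Slc31a1 by 1.69, each set apart. Slc31a1 had a narrow low range, 5.57 to 7.45 FPKM, against 9.4 to 48.8 FPKM. The reduced folate carrier Slc19a1 differed by 0.25 and the anion transporter Slc26a11 by -0.00. The anion transporter Slco1a5 lay below the filter, yet its low libraries reached 0.132 FPKM and its high libraries began at 0.263 FPKM.

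Among secreted proteins, all 12 listed passed the filter, 7 were set apart and 10 were at least 1 higher, with a median difference of 3.43. Enpp2 was 32.9 to 88.8 FPKM in the low libraries (median 66.5), 63.1 to 172.8 FPKM in the middle ones and 271.9 to 2870.8 FPKM in the high ones (median 750.8). On this scale, which is per transcript length, Enpp2 had the highest median of the 70 choroid epithelium genes in the high libraries. F5, coagulation factor V, differed by 5.25, 1500015O10Rik (Ecrg4, a secreted peptide precursor) by 4.80, the basement membrane collagen Col8a1 by 4.53, the heparan sulfate editing enzyme Sulf1 by 3.87 and Sostdc1, an antagonist of BMP and Wnt ligands, by 3.70. The growth factor Igf2 was 8.48 to 31.1 FPKM in the low and 20.5 to 197.6 FPKM in the high libraries, and Igfbp2, which binds it, was 5.68 to 30.9 and 12.9 to 146.9 FPKM. Both overlapped. Clu, a chaperone that astrocytes also make, was at 411.9 to 639.0 FPKM in the low and 340.9 to 735.0 FPKM in the high libraries and differed by 0.15.

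Receptors and other membrane proteins gave 5 set-apart genes of 10 that passed the filter and 12 listed, with a median difference of 3.16. Kl was 4.42 to 9.13 FPKM in the low libraries (median 7.03), 1.97 to 12.8 FPKM in the middle ones and 16.7 to 157.2 FPKM in the high ones (median 46.5). The high libraries all lay above the low ones for Kl, but the low libraries kept a level that varied little, with an SD of 0.23 on the log2 scale. Tmem72, a membrane protein of the epithelium, differed by 5.34, the metalloreductase family member Steap1 by 5.05 and Ace, angiotensin-converting enzyme, by 3.46. The prolactin receptor Prlr differed by 4.07 and the serotonin receptor Htr2c by 2.26, and both overlapped. Htr2c in the low libraries had a median of 3.99 FPKM, but reached 16.1 FPKM in 0-0-2 replicate 8 and 18.3 FPKM in 0-0-2 replicate 4.

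Among 12 genes of junctions and keratins, 7 passed the filter and 4 were set apart. Cldn2, which forms paracellular pores for cations and water, was 0 to 0.457 FPKM in the low and 2.44 to 39.0 FPKM in the high libraries, a difference of 5.27. Cldn1, a sealing claudin, differed by 3.84, the keratin Krt18 by 3.72 and the desmosome protein Perp by 2.00. Below the filter, Krt8, the partner keratin of Krt18, was 0.0352 to 0.737 FPKM in the low and 0.733 to 6.45 FPKM in the high libraries, and the junction scaffold Tjp3 was 0 to 0.594 and 0.383 to 2.4 FPKM. Cldn3 (0.0752 to 1.35 FPKM), Cldn19 (0.101 to 0.654 FPKM) and Cdh1, E-cadherin (0.0742 to 0.441 FPKM), were low in the high libraries too.

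Transcription factors were lower in level, and 0 of 6 that passed the filter were set apart. Otx2, the homeobox factor that specifies choroid plexus, was 0.149 to 3.36 FPKM in the low libraries and 2.62 to 35.9 FPKM in the high ones, a difference of 4.02. Its 1 overlapping low library was again 0-0-2 replicate 4 (3.36 FPKM), where Zic1, a factor of thalamus, septum and other midline tissue, was at 44.7 FPKM against a low median of 2.17. Lmx1a, a roof plate factor below the filter, was at most 0.211 FPKM in the low and at least 0.237 FPKM in the high libraries. Foxj1, the master factor of motile cilia, differed by 0.72, Rfx2 by 0.24 and Rfx3 by 0.06.

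**Figure D2:**
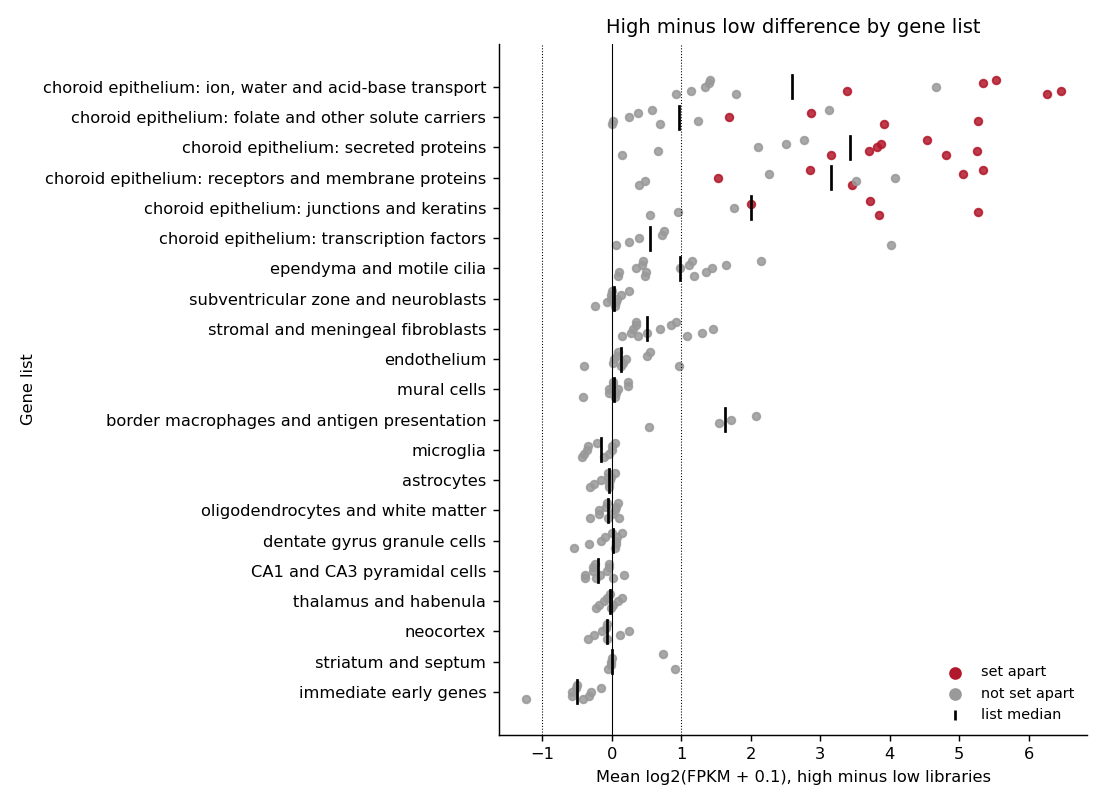
Difference in mean log2(FPKM + 0.1) between the 17 high and 33 low libraries for each listed gene that passed the filter (1 point a gene), with a line at the list median and dotted lines at -1 and 1. The set-apart genes, in red, lie in 5 of the 6 choroid epithelium lists, whose 59 genes have a median of 2.26, and 0 genes of the other 15 lists are red.

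Beyond the lists, 29 genes were set apart. Defb11, a beta-defensin, differed most of all genes, by 6.49, from 0 to 2.33 FPKM in the low libraries and 3.02 to 65.3 FPKM in the high ones. Next came Wfdc2, a secreted protein with whey acidic protein domains, at 5.22 and Prr32 at 4.65. Wdr86 differed by 3.67, the collagen Col8a2 by 3.47, the secreted phospholipase Pla2g5 by 3.23 and the retinol dehydrogenase Rdh5 by 3.02. The guidance ligand Sema3b (2.76), the paraoxonase Pon3 (2.68), Zfp185 (2.37), the angiopoietin-like protein Angptl2 (2.25), Msx1os (2.23), Mdfic (2.19), the complement inhibitor Cd59a (2.18) and the metalloreductase Steap2 (2.10) completed the 15 largest. Msx1os is named as an antisense transcript, and reads of the 2 strands may not have been told apart.

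Genes of the ventricular wall differed less. Of 25 genes of ependyma and motile cilia, 22 were listed in the table and 15 passed the filter. Of these, 0 were set apart and 7 were at least 1 higher, with a median difference of 0.98. Tmem212 and Ccdc153, markers of ependymal cells, differed by 0.43 and 0.35. Tmem212 was 0.268 to 12.4 FPKM in the low and 0.573 to 21.9 FPKM in the high libraries, and the library with the third highest Ttr, home cage replicate 3, had the lowest Tmem212 of the high libraries. Mia differed by 2.15, the dynein light chain Dynlrb2 by 1.64, the cilium protein Tekt1 by 1.44 and the radial spoke protein Rsph1 by 1.36. The summed level of the list was 27.4 to 124.8 FPKM in the low libraries and 60.9 to 231.5 FPKM in the high ones, and 2 of 17 high libraries lay above every low library. The 10 genes of the subventricular zone and neuroblasts that passed the filter, among them Dcx, Dlx2 and Sox11, had differences from -0.24 to 0.25.

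Fibroblast genes lay somewhat higher, with a median difference of 0.51 and a lowest of 0.15. Of the 13 that passed the filter, 0 were set apart and 3 were at least 1 higher, the matrix proteoglycans Ogn (1.46), Lum (1.30) and Dcn (1.09). Their summed level was 240.0 to 1511.8 FPKM in the low and 283.4 to 892.9 FPKM in the high libraries, with 0 of 17 high libraries above every low one. Most of that sum was Ptgds, a prostaglandin D synthase, at a median of 343.3 FPKM in the low and 547.8 FPKM in the high libraries. Antigen presentation genes were higher: H2-Aa differed by 2.08, the invariant chain Cd74 by 1.71 and H2-Ab1 by 1.54. Cd74 had a median of 1.24 FPKM in the low libraries (highest 4.27) and of 4.98 FPKM in the high ones (lowest 1.99). The border macrophage markers Mrc1, Cd163, Lyve1 and Pf4 had medians of 0.551, 0.206, 0.137 and 0.8 FPKM in the high libraries. Their medians in the low libraries were 0.408, 0.194, 0.146 and 0.775 FPKM. Folr2, also of this list, had medians of 0.244 FPKM in the low and 0.428 FPKM in the high libraries and differed by 0.93. Ms4a7 differed by 0.49, F13a1 by 0.32, Mrc1 by 0.34, Cd163 by 0.24, Pf4 by 0.20 and Lyve1 by 0.03. All of these macrophage genes lay below the filter, and their ranges overlapped. The whole list of 12 genes, which also holds Cd74 and Lyz2, summed to 7.46 to 22.2 FPKM in the low libraries. In the high libraries it summed to 11.2 to 37.6 FPKM. The part of stromal and immune cells in the high libraries was not tested.

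Endothelial genes differed little, with a list median of 0.14, and mural cell genes had a list median of 0.03. Plvap, which marks fenestrated capillaries, differed by 0.51, the growth factor receptor Kdr by 0.55 and Cldn5, the claudin of the blood-brain barrier, by -0.40. Slco1c1, a thyroid hormone transporter that the plexus also expresses, differed by 0.97. Of the 11 endothelial genes that passed the filter, 0 were at least 1 higher, and the ranges of all 11 overlapped.

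Hippocampal tissue differed little between the kinds. The list medians were 0.02 for dentate granule cells, -0.20 for CA1 and CA3 pyramidal cells, -0.05 for astrocytes, -0.06 for oligodendrocytes and -0.16 for microglia, and 0 genes of these lists were set apart or differed by 1. Adjoining brain gave medians of -0.03 for thalamus and habenula, -0.08 for neocortex and -0.01 for striatum and septum. In the last list Ppp1r1b, the phosphoprotein DARPP-32, differed by 0.91 (20.7 to 42.2 FPKM in the low and 25.3 to 105.8 FPKM in the high libraries), whereas Rgs9, Penk and Drd2 differed by -0.02, 0.01 and -0.06.

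Immediate early genes, which neurons induce on activity, lay lower in the high libraries but overlapped throughout. All 9 that passed the filter had negative differences, with a median of -0.50, among them Junb (-1.24), Arc (-0.58), Fos (-0.57) and Nr4a1 (-0.52). Junb was 2.5 to 38.8 FPKM in the low and 1.28 to 20.8 FPKM in the high libraries. The 41 genes at least 1 lower were short and rich in G and C, with a median transcript length of 383 bases and a median GC content of 57.2%, against 3445 bases and 49.7% over all genes with a transcript in the annotation. Across all 12993 genes, the 1252 genes of highest GC content had a median difference of -0.28. Their median deviation from each gene's mean over the 70 libraries was -0.85 to 0.18 in the high libraries (median -0.18) and -0.30 to 0.37 in the low ones (median 0.07). The part of GC content in these lower values was not tested. Atp6v0c, a proton pump subunit with the most negative difference (-2.93), is named after its values were seen. It ranged from 0.00109 to 1052.3 FPKM within the low libraries and from 0.000957 to 816.2 FPKM within the high ones.

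The choroid plexus genes kept a loose ratio to Ttr among the high libraries. The FPKM above the low median, per 1000 FPKM of Ttr, was 2.17 to 8.61 for Folr1 (median 5.0), 3.53 to 19.7 for Kl (median 7.32) and 66.4 to 440.1 for Enpp2 (median 149.7). It was 1.2 to 2.08 for Wfdc2, a range of 1.73-fold, and 0.533 to 8.9 for Igfbp2, a range of 16.7-fold. For 51 of the 54 set-apart genes the highest ratio was in 1 library, 14-7-2 replicate 9, whose ratios were 2.52 times those of the middle of the high libraries (median over genes). For 42 of 54 the lowest was in 14-14-0 replicate 0, at 0.568 times. The other 15 high libraries lay between 0.732 and 1.28 times. Ttr was 2198.5 FPKM in 14-7-2 replicate 9 and 9906.3 FPKM in 14-14-0 replicate 0, but Kcnj13 was 39.3 and 43.4 FPKM and Clic6 was 27.6 and 27.7 FPKM. The median deviation of the genes of highest GC content was also lowest of all 70 libraries in 14-7-2 replicate 9, at -0.85. The set-apart genes had a median GC content of 46.9%, against 49.7% over all genes. The part of GC content in these ratios was not tested.

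**Figure D3:**
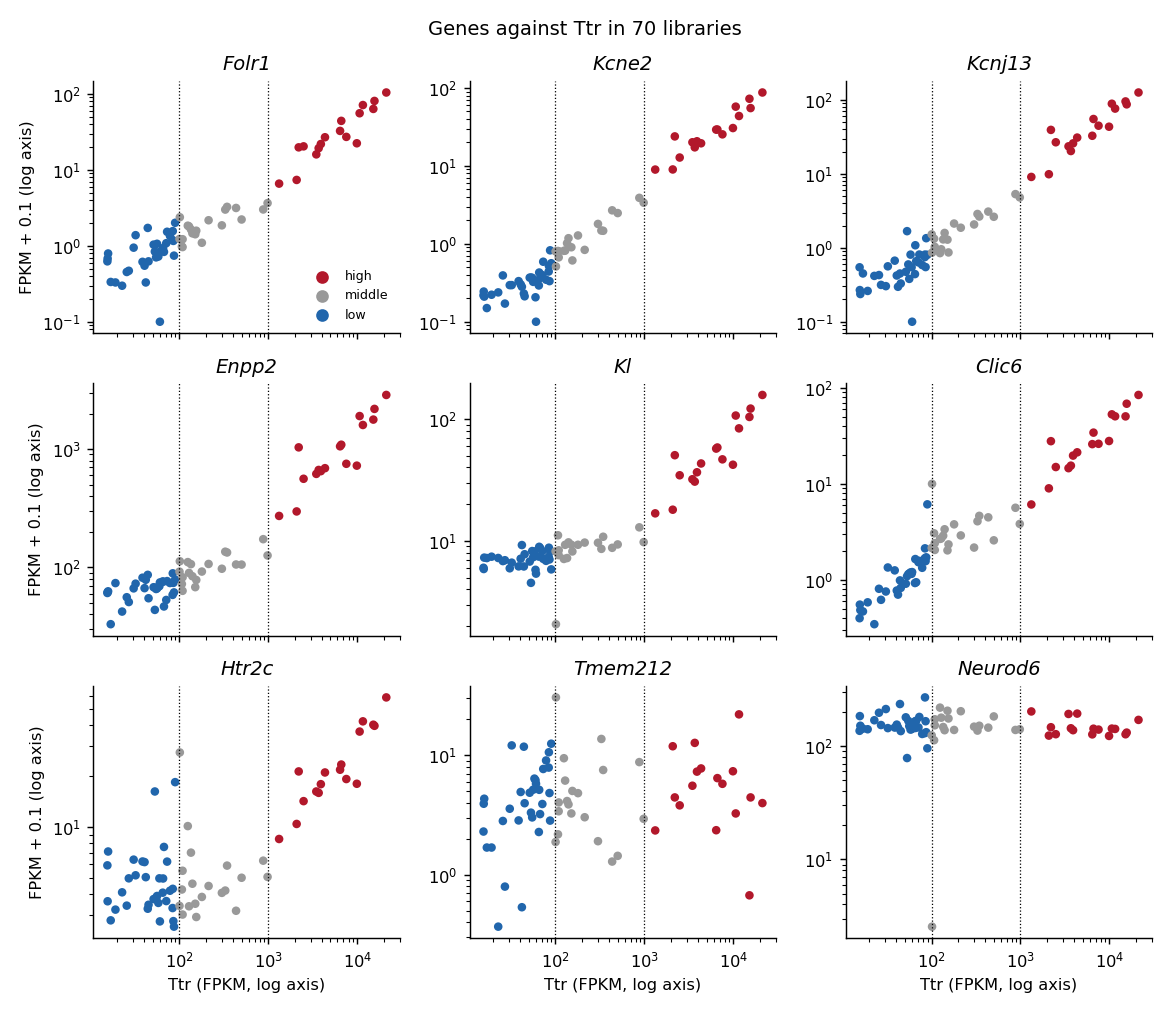
Level of 9 genes (FPKM + 0.1, log axis) against Ttr (FPKM, log axis) in the 70 libraries, coloured by kind, with dotted lines at 100 and 1000 FPKM. Folr1, Kcne2 and Kcnj13 climb along the whole range of Ttr. Clic6 climbs from the low to the high libraries, but its slope on log2 Ttr in the middle ones was 0.17 ± 0.12 (SE, limma, adjusted p = 0.718). Enpp2, Kl and Htr2c lie on a base level in the low libraries and climb in the high ones, and Tmem212 and Neurod6 show no climb. The low point of Neurod6 is sedentary replicate 6.

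The 20 middle libraries were not used to compare high with low, so each gene was fitted there against log2 Ttr with limma, with the Benjamini-Hochberg adjustment over all 12993 genes. A slope of 1 means that a gene doubles with Ttr. In these libraries 13 genes rose with Ttr (0.1%) and 1 fell (0.0077%), and 460 and 497 had an unadjusted p under 0.05. All 13 were among the 54 set-apart genes, and 12 of the 13 are in the choroid epithelium lists. Over the 54 genes, 51 had a positive slope, against 5983 of all 12993 genes, and the median slope was 0.15 against -0.01. The filter used the mean over all 70 libraries, so genes low in the middle libraries could enter through the high ones. Middle medians of the 13 genes ran from 0.161 FPKM (Tmem72) to 2.99 FPKM (Sostdc1). The lists were chosen with earlier results of these data known, so these overlaps are a description.

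The 4 smallest p-values were those of transport genes. Kcne2, at 0.412 to 3.79 FPKM in the middle libraries, rose by 0.76 ± 0.07 (SE) per log2 unit of Ttr (limma, adjusted p = 2.8e-06). The slope was 0.73 ± 0.07 for Kcnj13 (adjusted p = 9.0e-06), 0.65 ± 0.07 for Aqp1 (adjusted p = 5.4e-05) and 0.65 ± 0.07 for Slc4a5 (adjusted p = 5.4e-05). Slopes of 0.68 for Wfdc2, 0.53 for Tmem72, 0.50 for Cldn2, 0.44 for F5, 0.44 for Cldn1, 0.40 for Sostdc1, 0.30 for Abca4 and 0.25 for Ace also passed, with limma adjusted p-values of 0.00123 to 0.0411. Folr1 rose by 0.45 ± 0.08 (limma, adjusted p = 0.0208). With the study group as a covariate its slope was 0.52 but did not pass (limma, adjusted p = 0.413). With replicate number as a covariate, and in either cohort alone, its slope was 0.42 to 0.49 and did not pass. With the 5 FPKM filter the limma adjusted p was 0.0513. Enpp2 (0.24 ± 0.06, adjusted p = 0.214) and Kl (0.21 ± 0.10, adjusted p = 0.667) had positive slopes that did not pass. Htr2c had a slope of -0.06 ± 0.16 and Otx2 of 0.10 ± 0.14, and neither passed (limma, adjusted p = 0.915 and 0.853). Sedentary replicate 6, with Ttr at 101.2 FPKM, had the highest Htr2c (27.5 FPKM) and Otx2 (6.36 FPKM) of the middle libraries. It also had their lowest Kl (1.97 FPKM). Without that library the Kl slope was 0.11 ± 0.04 (limma, adjusted p = 0.421). Slopes of Htr2c and Otx2 without it are not given here.

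The only gene that fell was Farp2, a guanine nucleotide exchange factor, with a slope of -0.17 ± 0.03 (limma, adjusted p = 0.0469), and its high and low libraries differed by 0.12. Of 12 alternatives, quantile normalization alone kept a falling gene. Of the ependymal list, 1 of 15 genes had a positive slope, with 0 called in either direction. Tmem212 and Foxj1 had slopes of -0.16 ± 0.24 and -0.22 ± 0.16. The highest Tmem212 of the middle libraries, 30.4 FPKM, was in sedentary replicate 6, with Ttr at 101.2 FPKM. The next was 13.6 FPKM, in 14-7-0 replicate 9. Ependymal slopes without sedentary replicate 6 are not given here. Fibroblast genes had positive slopes in 10 of 13, with 0 called. In the list of border macrophages and antigen presentation, 4 of 4 had positive slopes (Cd74, H2-Aa, H2-Ab1 and Lyz2), with 0 called.

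The count of rising genes moved with the model. With the study group as a covariate, 4 genes rose, Kcne2, Kcnj13, Aqp1 and Slc4a5. In the 10 middle libraries of cohort 1 alone, 1 gene rose, 1500015O10Rik, and in the 10 of cohort 2 alone 2 did, Kcne2 and Slc4a5. With log2 Folr1 in place of Ttr, 3 genes rose, Enpp2, Aqp1 and 1500015O10Rik.

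**Figure D4:**
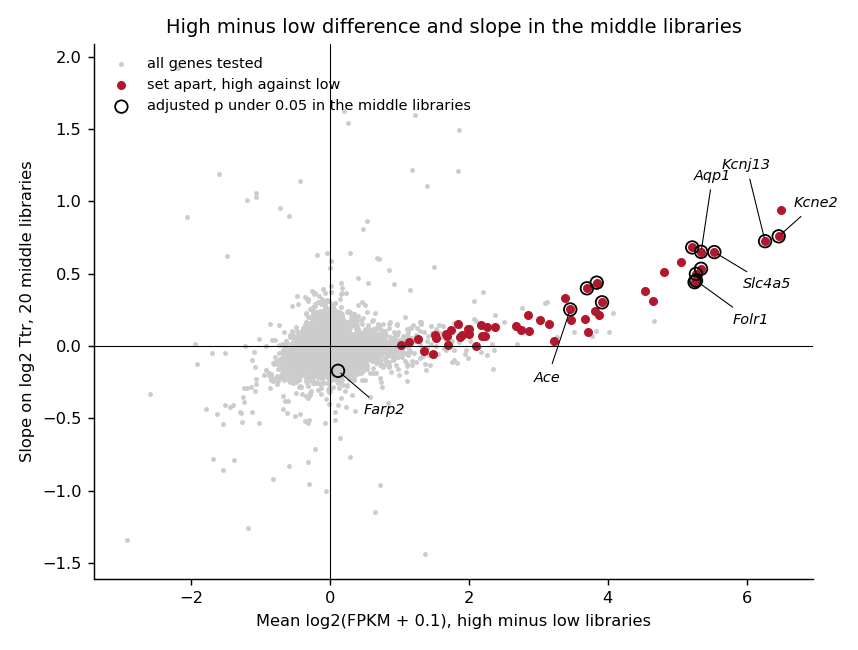
Slope on log2 Ttr in the 20 middle libraries against the high minus low difference in mean log2(FPKM + 0.1) for 12993 genes, with the 54 set-apart genes in red and the 14 genes past the adjusted threshold circled. The circled genes to the right have differences of 3.46 to 6.46, and Farp2 is circled below 0.

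Promoters are shown because 13 genes rose together in the middle libraries. Of the 54 set-apart genes, 44 had a RefSeq promoter window on GRCm38.p6, the build named mm10 in the submitters' processing notes, and only the 250 bases before each start were read. Both strands were searched for TAATCC, a core bound by OTX2, GTTGCC, one arm of the RFX X-box, and TGTTTAC, a forkhead core. TAATCC was found before 4 of these 44 genes (9.09%), against 6.25% of all 32851 windows, GTTGCC before 6 (13.6%, against 10.4%) and TGTTTAC before 1 (2.27%, against 3.17%). Of the 13 genes that rose, 11 had a window and 4 held a match. Of the 11, 2 held TAATCC (18.2%), 2 held GTTGCC (18.2%) and 0 held TGTTTAC (0.0%). The share of all tested genes with any of the 3 motifs was not computed. A gene can have several windows and counts once if any holds a match, so its share is not the same quantity as the share of windows. Over the 10278 tested genes with a window, counted in the same way, the shares were 6.15%, 12.7% and 2.61%. The 4 are printed 5′ to 3′ on the gene's strand, with the match in capitals.
Kcne2 at chr16:92292139-92292388, plus strand, with GTTGCC on the opposite strand: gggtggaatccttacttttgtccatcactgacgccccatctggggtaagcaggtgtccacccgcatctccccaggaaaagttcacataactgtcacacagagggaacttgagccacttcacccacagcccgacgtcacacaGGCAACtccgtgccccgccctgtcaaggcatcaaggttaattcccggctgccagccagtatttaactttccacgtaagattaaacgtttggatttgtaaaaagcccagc
Aqp1 at chr6:55336049-55336298, plus strand, with GTTGCC: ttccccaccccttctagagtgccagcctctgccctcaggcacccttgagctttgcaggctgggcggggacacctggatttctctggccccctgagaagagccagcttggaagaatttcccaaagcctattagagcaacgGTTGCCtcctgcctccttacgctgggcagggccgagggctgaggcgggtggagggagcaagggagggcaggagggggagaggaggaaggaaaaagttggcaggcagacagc
Abca4 at chr3:122044210-122044459, plus strand, with TAATCC on the opposite strand: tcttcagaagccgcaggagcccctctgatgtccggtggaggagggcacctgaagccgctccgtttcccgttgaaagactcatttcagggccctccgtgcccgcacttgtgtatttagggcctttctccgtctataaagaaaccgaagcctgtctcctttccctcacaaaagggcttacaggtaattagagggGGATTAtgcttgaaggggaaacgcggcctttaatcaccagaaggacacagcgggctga
Ace at chr11:105967698-105967947, plus strand, with TAATCC: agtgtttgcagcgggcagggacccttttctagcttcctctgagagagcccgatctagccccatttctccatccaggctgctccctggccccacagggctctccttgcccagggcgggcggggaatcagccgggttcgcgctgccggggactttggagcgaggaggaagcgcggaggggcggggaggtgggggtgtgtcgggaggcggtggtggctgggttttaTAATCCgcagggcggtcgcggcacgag
The match began 109 bases before the start of Kcne2, 111 before Aqp1, 58 before Abca4 and 27 before Ace. The windows of Kcnj13 and Slc4a5, which had slopes of 0.73 and 0.65 in the middle libraries, held none of the 3 motifs.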

How the data were processed

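RNA was made into poly-A selected libraries and read as single 50-base reads. Per the labels and the study's methods, reads were aligned to mm10 with ELAND and Bowtie, with up to 2 mismatches and unique placement, and the authors deposited FPKM values from the Tuxedo tools (Cuffnorm in the submitters' notes) for 24346 genes in 70 libraries. ELAND was v2e, and versions of Bowtie and the Tuxedo tools are not given in the sources used here. FPKM holds no read counts, so intervals from counts were not made. The study's supplement lists reads per sequencing sample under barcode names, which were not matched to these libraries.

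Libraries and gene lists were chosen with earlier results of these data known. Values were taken as log2(FPKM + 0.1), and genes were kept where the mean over all libraries reached 1 FPKM. High and low libraries were described by means and ranges, with no test. Slopes in the middle libraries were fitted with limma 3.58.1 in R 4.3.3, and Ttr by group and cohort was described by means. Planned permutation and Fisher tests of Ttr were run with scipy 1.17.1, but their p-values are not given, since Ttr chose the libraries. Any gene of the 252 in 21 lists could be named, besides the 15 largest set-apart genes outside them and the 10 smallest p-values in each direction in the middle libraries. Both procedures were tested on simulated data. Each library is treated as a separate animal. Alternatives covered the pseudocount, filter, scaling, sorting gene, limits, cohort, group, replicate number and 2 libraries left out.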

Additional observations from a re-analysis of the deposited data

Results flagged for a closer look

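The log2 levels of Ttr, Folr1, Kl and Enpp2 were examined in the 7 groups of 10, 28 sets in all, and 7 had an end value far from the rest by Dixon's criterion. Chance flags about 1 in 20 such sets. In 14-7-2, replicate 9 stood above the others for Folr1 (19.7 FPKM, next 3.05), Kl (50.3 FPKM, next 12.8) and Enpp2 (1034.1 FPKM, next 172.8), and it is the only high library of that group. In 0-0-2, replicate 9 stood above for Kl (106.5 FPKM, next 16.7) and Enpp2 (1903.3 FPKM, next 271.9). In 14-7-0, replicate 7, the only high library there, had Enpp2 at 296.7 FPKM with the next at 135.4. The lowest Kl of the sedentary group was 1.97 FPKM in replicate 6, the library with little Neurod6, and the next was 5.91 FPKM. Ttr itself gave no such value in any of the 7 groups.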

How the results depend on the processing

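The 54 genes set apart became 85 with a mean filter of 0.1 FPKM, 17 with 5 FPKM, 102 with Ttr limits of 2000 and 50 FPKM, 8 with limits of 500 and 200 FPKM and 88 in cohort 2 alone. They stayed within 41 to 77 under the other 7 alternatives, sorting by Folr1 among them (61 genes, 53 of them shared). That sort took the same 17 high libraries and 28 of the 33 low ones, so its count says little. Ranges apart in all 50 libraries stay apart in a subset, so the counts in each cohort or in odd-numbered libraries say little. None gave a gene set apart as lower. The 182 genes at least 1 higher became 118 with a pseudocount of 1, 373 with the 0.1 FPKM filter and 53 with 5 FPKM, and the 41 at least 1 lower became 17 with a pseudocount of 1 and 84 in cohort 2 alone. The 13 rising genes of the middle libraries became 3 with the 5 FPKM filter, which tests fewer genes, 4 with the group covariate, 4 with the replicate block, 3 on Folr1, 1 in cohort 1 and 2 in cohort 2, and 11 to 16 otherwise. The 1 falling gene became 0 in all but quantile normalization, and Kl had a slope of -0.006 on Folr1. The 14-0-0 difference in Ttr was 2.49 in cohort 1, 5.12 in cohort 2 and, chosen after seeing the data, 5.42 in odd-numbered and 2.19 in even-numbered libraries, and 3.78 to 3.88 under 3 other alternatives. The 14-7-0 difference was -0.19 in cohort 1. The replicate block leaves mean differences as they are (3.80 for 14-0-0, 3.57 for 14-14-0 and 2.38 for the home cage group). Deviations of same-numbered libraries had a median correlation of 0.0853 over 210 pairs, with 96 above 0.1, against medians of -0.0204 for other numbers of a cohort (203 of 840 above 0.1) and -0.0128 across cohorts (288 of 1050). By these medians same-numbered libraries were somewhat more alike, though not every such pair was above 0.1. The main fits did not treat the libraries as paired, so the 13 rising genes leave replicate number out. With it as a block, 4 rose. No paired fit was possible for the cohorts, since a replicate number belongs to 1 cohort. The cause of these moves was not tested. FPKM without counts limits what can be said of genes near 0.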

Other observations

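A few genes outside the lists, picked after their values were seen because they were high, had overlapping ranges and form no tested group. Drc7, of the axonemal regulatory complex, was 0.0901 to 2.49 FPKM in the low and 2.45 to 29.2 FPKM in the high libraries. The cilium genes Pifo (0.0786 to 2.19 and 0.898 to 9.59 FPKM), Mlf1 (0.257 to 2.59 and 1.76 to 11.4 FPKM) and Cfap126 (medians 1.61 and 5.36 FPKM) differed by 2.33, 2.18 and 1.83. Cox8b, a cytochrome oxidase subunit of muscle and brown fat, was 0 to 4.42 FPKM in the low and 2.76 to 31.2 FPKM in the high libraries. Crhr2, a receptor for urocortins, differed by 1.95.

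The high libraries fell unevenly on replicate numbers, a tally made after seeing the data. Of 35 odd-numbered libraries, 15 were high, 9 middle and 11 low. Of 35 even-numbered libraries, 2 were high, 11 middle and 22 low. Median Ttr was 434.1 FPKM in the odd-numbered and 65.6 FPKM in the even-numbered libraries. Odd-numbered high libraries came from 6 groups. The labels do not say what an odd number stands for, and no test was made. The median deviation of the genes of highest GC content was -0.10 in odd-numbered and 0.09 in even-numbered libraries.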
